A study of Mus musculus with 8 samples.

Results

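The mouse mitochondrial chromosome encodes 22 tRNAs, and the 8 described here lie on the plus strand of the reference between mt-Co1 and the control region: mt-Td, mt-Tk, mt-Tg, mt-Tr, mt-Th, mt-Ts2, mt-Tl2 and mt-Tt. The rule that defines them uses the annotation and no measured value: they are the plus-strand mitochondrial tRNA genes that start after position 5100 of chromosome M in GRCm38. The rule was proposed with earlier results of these data known. All 8 were listed in both deposited tables, among 21 mitochondrial tRNAs in each and among 2707 features in the Ion Proton table and 2878 in the SOLiD table.

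Small RNAs were sequenced from bone marrow-derived macrophages (BMDMs) of C57BL/6J mice, that is, macrophages grown from bone marrow with macrophage colony-stimulating factor (M-CSF). Control cells were compared with cells kept for 36 h in medium from which M-CSF, the growth and survival factor of these cells, had been withdrawn, which the study used as a model of macrophage apoptosis. Total RNA was sequenced on Ion Proton in duplicate (2 control libraries, 2 after M-CSF withdrawal) and on SOLiD once per condition, and gel-purified RNA of 25 to 40 nt was sequenced on SOLiD, also once per condition. The Ion Proton extract is total RNA in the methods and small RNA in the labels, and is called total RNA below.

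Mitochondrial tRNAs deliver amino acids to the mitochondrial ribosome, which makes core subunits of the respiratory chain. The long transcripts of the mitochondrial chromosome are cut at the tRNAs, which stand between the mRNAs and rRNAs like punctuation marks, so that excision of a tRNA frees the ends of its neighbours. After cutting, the CCA end is added and many bases are modified before the tRNA is charged. Reads assigned to such a gene may come from the whole tRNA, from a fragment or from an uncut precursor, and a count per gene does not tell them apart.

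The sequences of 5 members are shown because the results below turn on them: the histidine, serine and leucine tRNAs stand side by side, the glycine tRNA was the highest member after M-CSF withdrawal in SOLiD, and the aspartate tRNA was the lowest member in Ion Proton. They are the plus-strand gene sequences of the GENCODE annotation (GRCm38), without the added CCA, with the anticodon in capitals.
mt-Td: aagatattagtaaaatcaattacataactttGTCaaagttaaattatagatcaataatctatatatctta
mt-Tg: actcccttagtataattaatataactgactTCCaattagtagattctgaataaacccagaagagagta
mt-Th: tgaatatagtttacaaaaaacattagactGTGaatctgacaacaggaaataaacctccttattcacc
mt-Ts2: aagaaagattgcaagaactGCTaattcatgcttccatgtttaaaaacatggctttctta
mt-Tl2: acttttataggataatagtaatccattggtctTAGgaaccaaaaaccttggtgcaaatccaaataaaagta

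Each member filled its gene as a single exon without introns, and no gene was annotated on the other strand of any of them. mt-Td (ENSMUST00000082404, chrM:6942-7011, 70 nt) reads aspartate codons and lies 1 base before mt-Co2. mt-Tk (ENSMUST00000082406, chrM:7700-7764, 65 nt) reads lysine codons and lies between mt-Co2 and mt-Atp8. mt-Tg (ENSMUST00000082410, chrM:9391-9458, 68 nt) reads glycine codons and abuts mt-Co3 and mt-Nd3 with no base between them. mt-Tr (ENSMUST00000082412, chrM:9808-9875, 68 nt) reads arginine codons and lies between mt-Nd3 and mt-Nd4l.

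mt-Th (ENSMUST00000082415, chrM:11546-11612, 67 nt), mt-Ts2 (ENSMUST00000082416, chrM:11613-11671, 59 nt) and mt-Tl2 (ENSMUST00000082417, chrM:11671-11741, 71 nt) form the only run of 3 tRNAs among the members, between mt-Nd4 and mt-Nd5. mt-Ts2, the shortest member, is the serine tRNA for AGY codons that lacks the D arm, and it shares base 11671 with mt-Tl2, the leucine tRNA for CUN codons. mt-Tt (ENSMUST00000082422, chrM:15289-15355, 67 nt) reads threonine codons and abuts mt-Cytb. GC content ran from 17.1% in mt-Td to 34.3% in mt-Tt. Identity between members was 44.1% to 62.2% over the 28 pairs, and none held a stretch of 20 nt found in another feature listed for Ion Proton. Features listed for SOLiD alone were not part of this search. In the annotated transcripts, only mt-Tt shared such a stretch, with Gm43841, and copies in nuclear DNA outside transcripts were not searched for here.

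Depth was 6053130 to 7760142 reads on listed features in the Ion Proton libraries, and 4039837 to 12178454 in the SOLiD libraries. Values are reads per 1000000 of these, called CPM for Ion Proton and RPM for SOLiD. The RNA integrity number was 8.4 to 8.9 in Ion Proton for both conditions, 8.4 for control and 7.5 for M-CSF withdrawal in SOLiD total RNA. It was 2.7 and 2.6 in the RNA of 25 to 40 nt. The 6 miRNA markers of macrophages and other blood cells had a lower sum after M-CSF withdrawal in each pair of conditions. Of them, 4 had reads in all libraries, and the sum does not show how each one changed. They summed to 68005 and 73997 CPM against 51107 and 58108 CPM in Ion Proton, to 384727 against 142967 RPM in SOLiD total RNA and to 233197 against 95614 RPM in the RNA of 25 to 40 nt. The part of this difference in the members' shares of their libraries was not tested. Of 14 markers of other cell types, 12 were listed for either run. They summed to only 28.1 to 37.0 CPM in Ion Proton, where the endothelial and muscle markers were not listed and count as 0. In SOLiD they summed to 5390 to 8433 RPM, mostly erythroid (2395 to 3991 RPM) and epithelial (2590 to 3744 RPM) miRNAs. The SOLiD libraries stood apart in this way under both conditions, with 7129 RPM for control and 5744 RPM for withdrawal in the pair of total RNA and 5390 and 8433 RPM in the pair of 25 to 40 nt, and the part of these markers in the SOLiD values below was not tested. The Ion Proton values below do not use those libraries.

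The members were higher after M-CSF withdrawal. In the Ion Proton run they summed to 439 and 399 CPM in control cells and to 2627 and 2545 CPM after M-CSF withdrawal, 6.17-fold more (419 ± 28.2 against 2586 ± 58.0, SD, n = 2 each; exact two-sided permutation p = 0.333, the smallest that 2 against 2 libraries allow). In edgeR's quasi-likelihood test, 7 of the 8 members rose and none fell, where 15.7% of all 2029 features tested rose and 8.97% fell. The median log2 fold change was 2.85 over the 8 members and 0.08 over all features. All 8 had both M-CSF withdrawal libraries above both control libraries, as did 33.4% of all features. In these bulk samples, more RNA per cell and a larger share of cells that contain it cannot be told apart. Nor can an increase of these reads be told apart from a decrease of other RNAs in the same library, because all values are shares of a library.

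**Figure D1:**
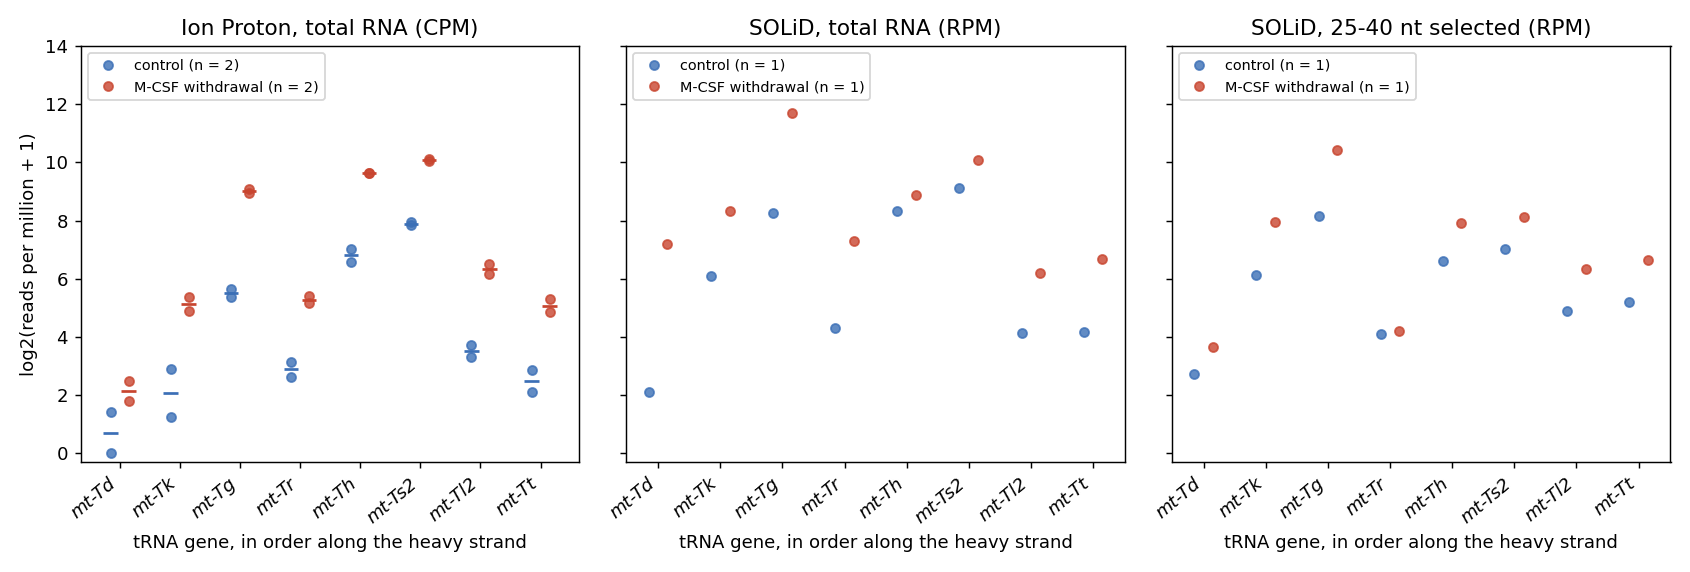
Level of each of the 8 tRNAs in each library, as log2 of CPM (Ion Proton) or RPM (SOLiD) plus 1, with control libraries in blue, M-CSF withdrawal libraries in red and short lines for the Ion Proton means (n = 2 each). In Ion Proton all withdrawal points lie above the control points, and in SOLiD total RNA the gap is smallest for mt-Th (318 against 473 RPM).

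mt-Th and mt-Ts2 were the most abundant members in Ion Proton. mt-Th, the histidine tRNA, was at 129 and 94.6 CPM in control cells and at 794 and 790.5 CPM after M-CSF withdrawal. mt-Ts2 was at 227 and 245 CPM in control cells and at 1119 and 1055 CPM after M-CSF withdrawal. The groups lay far apart in both genes, and both rose, with edgeR log2 fold changes of 2.88 for mt-Th (SE 0.170, adjusted p = 0.00166) and 2.26 for mt-Ts2 (SE 0.0844, adjusted p = 0.000688). Their neighbour mt-Tl2 was much lower, at 12.1 and 8.91 CPM in control cells and 69.9 and 89.9 CPM after M-CSF withdrawal. It rose as well, by a log2 fold change of 2.97 (SE 0.228, adjusted p = 0.00274).

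mt-Tg, the glycine tRNA, came after mt-Ts2 and mt-Th in abundance, at 49.2 and 40.5 CPM in control cells and at 543 and 492 CPM after M-CSF withdrawal. It rose with a log2 fold change of 3.58 (SE 0.129, adjusted p = 0.000688), the highest estimate among the members. mt-Tr, the arginine tRNA, was at 7.86 and 5.15 CPM in control cells and at 40.9 and 35.2 CPM after M-CSF withdrawal, and rose by a log2 fold change of 2.59 (SE 0.231, adjusted p = 0.00345). The control libraries were close to each other in both genes relative to the gap between conditions.

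mt-Tt, the threonine tRNA, had 6.31 and 3.34 CPM in control cells and 27.9 and 38.5 CPM after M-CSF withdrawal, and rose by a log2 fold change of 2.82 (SE 0.354, adjusted p = 0.00895). mt-Tk, the lysine tRNA, had 6.44 and 1.39 CPM in control cells, from 50 and 10 reads, and 28.5 and 40.6 CPM after M-CSF withdrawal. It rose by a log2 fold change of 3.17 (SE 0.612, adjusted p = 0.0252), with the widest spread among the members that passed. The call of mt-Tk was lost without the second M-CSF withdrawal library (adjusted p = 0.0696).

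mt-Td, the aspartate tRNA, was close to the limit of detection in Ion Proton. It had 13 and 0 reads in control cells and 30 and 15 reads after M-CSF withdrawal, or 1.68, 0, 4.60 and 2.48 CPM. The library with 0 of 7180950 reads allows up to 0.418 CPM (3 reads; counting error only). The log2 fold change was 2.08 (SE 1.24, adjusted p = 0.320), and a difference was not detectable at this depth.

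The SOLiD pair of total RNA has 1 library per condition and therefore no test. The members summed to 1304 RPM in control cells and 5674 RPM after M-CSF withdrawal, 4.35-fold more. Of the 8, 6 had a log2 ratio of RPM plus 1 of at least 1, and none had one of -1 or less, against 24.9% and 9.27% of 2513 features, with a median of 2.36 against 0.18 over all features. mt-Tg went from 306 to 3313 RPM, a log2 ratio of 3.43 (95% counting interval 3.36 to 3.50), close to its Ion Proton value. mt-Tr went from 18.7 to 155 RPM (log2 ratio 2.98), and mt-Tt from 17.2 to 102 RPM (2.51). mt-Tk went from 67.7 to 319 RPM (2.22), and mt-Tl2 from 16.5 to 72.6 RPM (2.08). These 5 genes were all at least 4.41-fold higher after M-CSF withdrawal.

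Of the remaining 3 genes, mt-Td lay above these 5, and mt-Th and mt-Ts2 lay below them. mt-Td went from 19 to 1762 reads, that is from 3.29 to 145 RPM, a log2 ratio of 5.09 (95% counting interval 4.58 to 5.59) and the highest among the members. mt-Th went from 318 to 473 RPM, a log2 ratio of 0.57 (0.50 to 0.65), and mt-Ts2 from 557 to 1093 RPM, a log2 ratio of 0.97 (0.92 to 1.03). Both ratios moved with the scaling: mt-Th was at 0.15 when centred on the median of 978 features and at 1.57 on miRNA reads, and mt-Ts2 at 0.54 and 1.96. On miRNA reads all 8 members were past 1. The counting intervals do not cover variation between cultures, and the RNA integrity number of the M-CSF withdrawal library was the lower one of the pair; its part in these ratios was not tested.

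**Figure D2:**
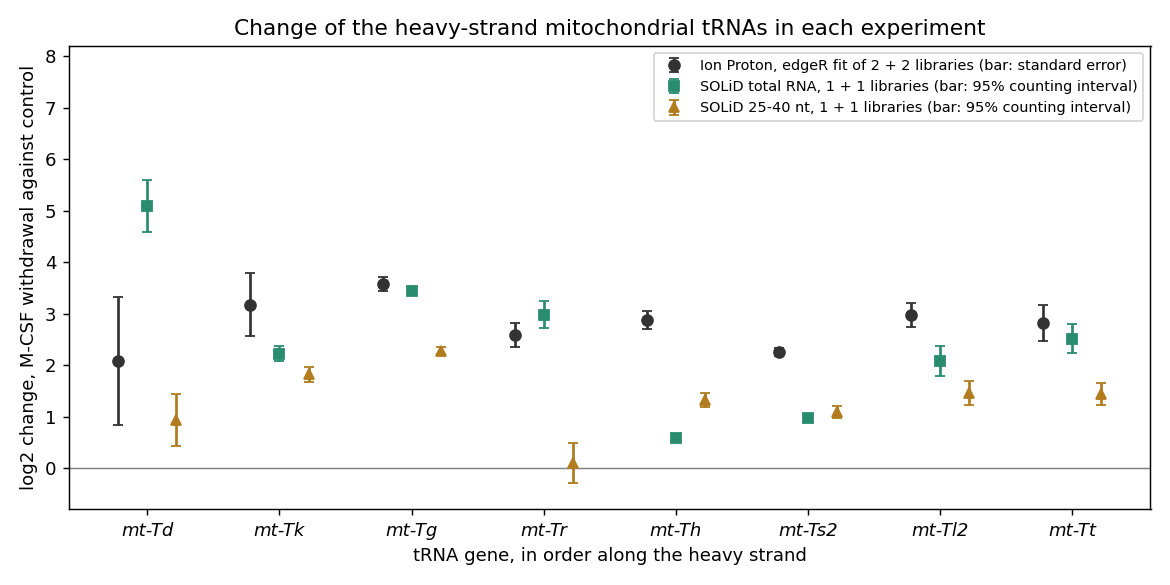
Log2 change of each tRNA after M-CSF withdrawal in Ion Proton (black circles, edgeR estimate with its standard error, 2 against 2 libraries), SOLiD total RNA (green squares) and SOLiD RNA of 25 to 40 nt (brown triangles), both as log2 ratios of RPM plus 1 with 95% counting intervals, 1 against 1 library. Apart from mt-Td and mt-Tr, the members lie lower in both SOLiD series than in Ion Proton, and mt-Td lies highest in SOLiD total RNA at 5.09.

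When the 6 libraries of total RNA were fitted together in limma with run as a term, 7 of the 8 members rose and none fell, against 11.6% and 5.7% of 1701 features. The fit shares its Ion Proton libraries with the test above and is no independent check of it. Log2 fold changes were 3.48 for mt-Tg (SE 0.165, adjusted p = 0.000377), 2.78 for mt-Tk (SE 0.482, adjusted p = 0.0172) and 2.08 for mt-Th (SE 0.468, adjusted p = 0.0365). mt-Ts2, mt-Tl2, mt-Tr and mt-Tt rose by 1.79 to 2.59, and mt-Td did not pass (2.65, SE 0.827, adjusted p = 0.0778). These calls depended on single libraries: without the second Ion Proton control library or without either Ion Proton M-CSF withdrawal library, only 1 member passed, and 15 to 19 features passed in the whole table in place of 295. Without the first Ion Proton control library, 5 members passed. mt-Th and mt-Ts2 also lost their calls in voom (adjusted p = 0.0839 and 0.0540) and in edgeR on counts and recovered reads (0.119 and 0.0779).

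The change in SOLiD total RNA was then set beside that in Ion Proton, on log2 of RPM or CPM plus 1. The change of mt-Th in SOLiD minus that in Ion Proton was -2.26 on the log2 scale, and that of mt-Ts2 was -1.23. Scaled to miRNA reads, these were -1.71 and -0.68. mt-Td was at 3.65, and the remaining 5 members were between -0.83 and 0.58. These genes were singled out after their values had been seen, and 1 SOLiD library per condition gives no spread between SOLiD cultures, so that the differences are descriptions without a test.

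In SOLiD total RNA, mt-Th and mt-Ts2 together went from 874 to 1567 RPM, 1.79-fold, and the other 6 members from 430 to 4107 RPM, 9.56-fold. The Ion Proton folds were 5.40 for the former and 9.89 for the latter. This division was made after the values had been seen and was not tested.

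Relative amounts were compared per 100 nt of gene length, on the scale of levels. Whether reads scale with gene length in these libraries was not tested. The division raises mt-Ts2, the shortest member, relative to the others. In Ion Proton control cells the order was mt-Ts2 (400 ± 22.6 CPM per 100 nt, SD, n = 2), mt-Th (167 ± 36.3), mt-Tg (66.0 ± 9.05) and mt-Tl2 (14.8 ± 3.19), whose libraries did not overlap from one gene to the next. mt-Tr (9.57 ± 2.82), mt-Tt (7.21 ± 3.14) and mt-Tk (6.03 ± 5.49) overlapped in sequence, and so did mt-Tk and mt-Td (1.2 ± 1.69). After M-CSF withdrawal the first 4 genes kept their order, at 1843 ± 76.2, 1182 ± 3.19, 761 ± 52.2 and 113 ± 19.9 CPM per 100 nt, and mt-Td was again the lowest at 5.06 ± 2.14. In SOLiD total RNA the control library had the same first genes, mt-Ts2 at 944, mt-Th at 474 and mt-Tg at 451 RPM per 100 nt. After M-CSF withdrawal mt-Tg was first there, at 4873 RPM per 100 nt, ahead of mt-Ts2 at 1853 and mt-Th at 707. The runs also differed in library kit and RNA input, whose part in the levels was not tested.

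mt-Tg had a larger share of the members' reads after M-CSF withdrawal in all 3 pairs of conditions. Per length it made up 10.4% and 9.26% of the members' reads in Ion Proton control cells and 19.3% and 18.1% after M-CSF withdrawal (exact two-sided permutation p = 0.333, the smallest possible). On SOLiD the share went from 21.9% to 56.6% with total RNA and from 41.0% to 57.1% with size-selected RNA. The share of mt-Ts2 went the other way, from 54.9% and 64.6% to 45.9% and 44.8% in Ion Proton (permutation p = 0.333), from 46.0% to 21.5% in SOLiD total RNA and from 21.8% to 13.4% after size selection. Per length, mt-Ts2 was above its neighbour mt-Th in all 8 libraries, by a ratio of 1.30 to 2.95. Without the division the gap was smaller. In the size-selected M-CSF withdrawal library, which had the ratio of 1.30, it was 278 against 243 RPM. mt-Tl2, on the other side of mt-Ts2, stood per length at 0.0302 to 0.0708 of the level of mt-Ts2 in Ion Proton. It stood at 0.0246 and 0.0552 in SOLiD total RNA, but at 0.182 and 0.237 after size selection. In Ion Proton, the libraries of these adjacent genes did not overlap in level under either condition.

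**Figure D3:**
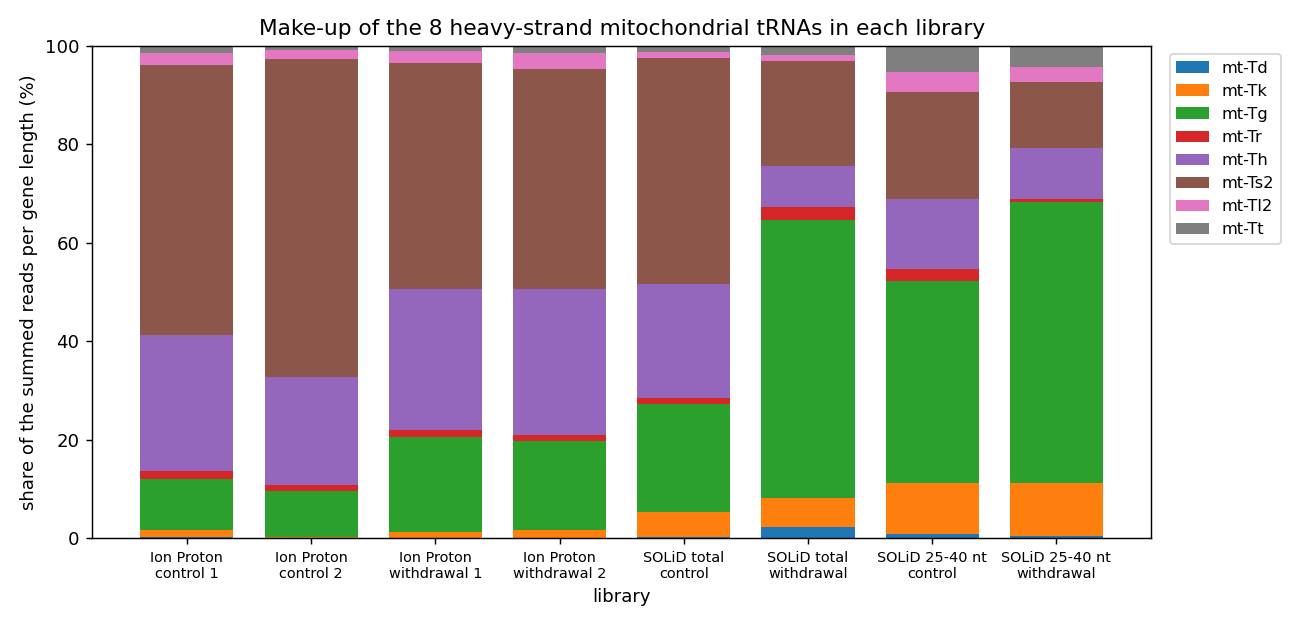
Share of each of the 8 tRNAs in their summed reads per gene length, in percent, as stacked bars for the 8 libraries. mt-Ts2 (brown) takes the largest share in the Ion Proton bars (44.8% to 64.6%), and mt-Tg (green) takes 56.6% and 57.1% in the SOLiD withdrawal bars.

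In the RNA of 25 to 40 nt, which holds fragments and no full-length tRNA of these lengths if the selection was complete, the members summed to 663 RPM in control cells and 2345 RPM after M-CSF withdrawal, 3.54-fold more. Of the 8, 6 had a log2 ratio of at least 1, and none had one of -1 or less, against 32.1% and 9.62% of 2214 features, and the median was 1.38 against 0.48 over all features. mt-Tg went from 281 to 1370 RPM (log2 ratio 2.28, 95% counting interval 2.21 to 2.35) and mt-Tk from 68.9 to 246 RPM (1.82). mt-Th went from 96.4 to 243 RPM (1.32) and mt-Ts2 from 130 to 278 RPM (1.09). mt-Tl2 (28.4 to 79.5 RPM) and mt-Tt (36.1 to 99.8 RPM) had log2 ratios of 1.45 and 1.44. The 2 members under a log2 ratio of 1 were mt-Td, at 5.61 and 11.6 RPM (0.93, 0.43 to 1.44), and mt-Tr, at 16.0 and 17.3 RPM (0.10, -0.28 to 0.49), whose interval included 0. When the ratios were centred on the median of the 903 features at 10 RPM or more in both libraries, which was 0.90, only mt-Tg stayed past 1 (1.38), mt-Td was at 0.03 and mt-Tr at -0.80. Scaled to miRNA reads, all 8 were past 1, with mt-Td at 1.85 and mt-Tr at 1.02.

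The members also differed in the ratio of their RPM between the size-selected and the total RNA library. Each library has its own total, so that this ratio compares shares of 2 libraries and not amounts of RNA. In control cells it was 23.3% for mt-Ts2 and 30.4% for mt-Th, but 173% for mt-Tl2 and 211% for mt-Tt. mt-Tk and mt-Tg were close to equal, at 102% and 91.8%. After M-CSF withdrawal, mt-Td was at 8.04% and mt-Tr at 11.2%, where control cells had 170% and 85.8%. mt-Ts2 stayed low, at 25.4%, and mt-Tl2 and mt-Tt were near equality, at 109% and 97.5%. Each percentage rests on 1 library of each kind, and in control cells that of mt-Td rests on 19 and 50 reads.

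**Figure D4:**
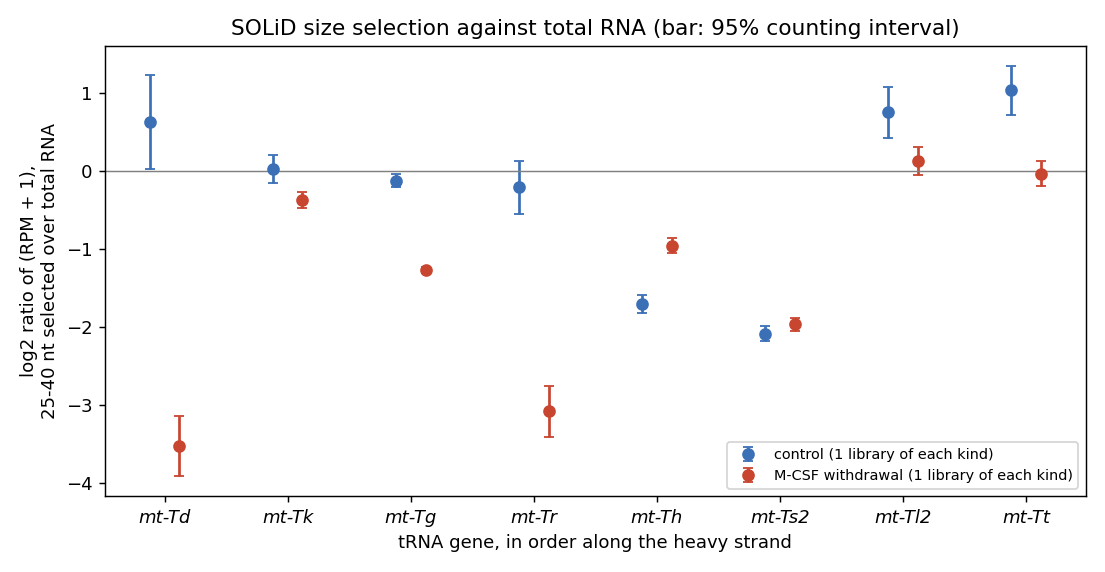
Log2 ratio of RPM plus 1 between the size-selected and the total RNA library of SOLiD for each tRNA, in control cells (blue) and after M-CSF withdrawal (red), with 95% counting intervals and 1 library of each kind. mt-Td and mt-Tr lie at -3.53 and -3.09 after M-CSF withdrawal, against 0.62 and -0.21 in control cells.

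The other mitochondrial tRNAs were used for comparison. The 8 members made up 26.4% and 25.2% of all mitochondrial tRNA reads in Ion Proton control cells and 24.8% and 24.9% after M-CSF withdrawal. The log2 ratio of their sum to that of the other 13 listed tRNAs was -1.53 ± 0.07 in control and -1.60 ± 0.01 after M-CSF withdrawal (SD, n = 2 each; exact two-sided permutation p = 0.333). Against the 5 other listed plus-strand tRNAs alone, it went the other way, from -1.08 ± 0.05 to -0.62 ± 0.03 (permutation p = 0.333). In SOLiD total RNA the members' share of the mitochondrial tRNA reads was 41.4% without and 25.5% with M-CSF withdrawal, and after size selection it was 27.9% and 28.8%. In the edgeR test 4 of the 5 other plus-strand tRNAs rose, with a median log2 fold change of 0.81, as did all 8 minus-strand tRNAs, with a median of 3.59. In SOLiD total RNA the median log2 ratio was 2.36 for the members, 2.31 for the other plus-strand and 3.30 for the minus-strand tRNAs. After size selection these medians were 1.38, 1.22 and 2.00. Nuclear tRNAs for the same amino acids had medians of 1.60 in SOLiD total RNA and 1.57 after size selection. A rise in SOLiD was thus not particular to the members. mt-Rnr1 and mt-Rnr2 were not analysed here.

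The profile over all 8 libraries, on log2 values centred within each pair of conditions, was most like the members' mean in mt-Te (Pearson r = 0.986), chr13.tRNA62-LeuAAG (0.986) and chr14.tRNA189-LeuAAG (0.984), of 694 candidate features. The points share their libraries and depth, and centring makes the libraries of each SOLiD pair mirror each other. These values are therefore descriptions, and features that rise in each pair come out alike. The members themselves had r from 0.824 for mt-Td and 0.909 for mt-Th to 0.995 for mt-Tt with their own mean. That mean includes the member compared, which raises r.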

How the data were processed

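Small RNA libraries of BMDMs were analysed from the tables that the authors deposited. In the Ion Proton run, adapters were removed by the authors with cutadapt 1.2.1 and reads mapped to mm10 with bowtie2 2.2.4 at up to 10 places each. The authors deposited raw counts per feature. Reads that fit several places could therefore be counted at each of them. For the SOLiD run, the authors used LifeScope 2.5.1 and deposited values in RPM, which are other than counts. Each SOLiD library summed to 1000000, and 100% of its values were whole reads within 0.1 read, so that reads and 95% Wilson intervals could be recovered. Intervals and the floor of 3 reads cover counting error only. Depth was 4039837 to 12178454 reads per library.

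The 4 Ion Proton libraries were compared by the quasi-likelihood test of edgeR 4.0.16 (R 4.3.3) with TMM factors, leaving out features whose counts summed to under 5. Standard errors were derived from the fold change and the F statistic. The 6 libraries of total RNA were fitted in limma 3.58.1 (treatment and run, intensity trend) on log2 of CPM or RPM plus 1, over features with at least 5 reads in each run. All p-values of a fit were adjusted together (Benjamini-Hochberg), and features under 0.05 passed. DESeq2 1.42.0 served as an alternative. A single value was compared by an exact permutation test. SOLiD pairs were given as log2 ratios of RPM plus 1, and the intervals of these ratios assume Poisson counts. The methods call the libraries biological replicates, and nothing says which cultures they came from.

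All 8 members are named by rule, whatever their values. The members and the comparison lists were chosen with earlier results of these data known. Genes and sequences come from the GENCODE mouse annotation on GRCm38. The scripts were tested on simulated counts that held no difference between the runs, which does not check the calls above. Sums were computed with Python 3.11.15, pandas 2.3.3 and numpy 2.4.6, and exact tests with scipy 1.17.1.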

Additional observations from a re-analysis of the deposited data

Results flagged for a closer look

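Among the members, the changes of mt-Th, mt-Ts2 and mt-Td after M-CSF withdrawal differed most between SOLiD total RNA and Ion Proton. The difference of the changes on the log2 scale was -2.26 for mt-Th, which was at 318 and 473 RPM in SOLiD and went from 112 ± 24.4 to 792 ± 2.14 CPM in Ion Proton (SD, n = 2 each). It was -1.23 for mt-Ts2, at 557 and 1093 RPM in SOLiD and from 236 ± 13.3 to 1087 ± 45.0 CPM in Ion Proton. An interaction term was fitted after the SOLiD values had been seen. SOLiD had 1 library per condition, so that this term rests on the spread of the Ion Proton libraries alone. It is not used here to separate the members. Its p-values are therefore not given, and whether the differences exceed the spread between SOLiD cultures was not tested. With other scalings of the same libraries the differences ran from -2.73 to -1.71 for mt-Th and from -1.70 to -0.68 for mt-Ts2. For mt-Td they ran from 3.18 to 3.70. In edgeR on counts and recovered reads the differences were -3.11 for mt-Th, -2.08 for mt-Ts2 and 2.56 for mt-Td. Groups of 2 libraries are too small to look for outlying samples.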

How the results depend on the processing

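In the Ion Proton run, 6 to 8 members passed under every setting tried. mt-Tk lost its call without the second M-CSF withdrawal library (adjusted p = 0.0696), and mt-Td gained one without the first control library (0.0197), where the remaining control library was at 0, so that its fitted fold is no bound. The members' median log2 fold change of 2.85 became 3.16 with TMM factors from miRNAs, which moved the median of all features from 0.08 to 0.39, and ran from 2.47 to 3.17 when each library was left out; the 6.17-fold higher sum ran from 5.89 to 6.48. Higher and lower calls over all features were 318 and 182, but 413 and 80 with miRNA factors and 232 and 238 in DESeq2. Without either M-CSF withdrawal library, 299 to 312 features passed in place of 500. Deviations of libraries with the same replicate number did not go together (r = -0.000336 across 852 features), so that the numbers were not taken as pairs. With the replicate number as a block, 6 members passed in edgeR (mt-Tk lost, adjusted p = 0.0800) and 359 features in all; in the fit of both runs, 4 members and 29 features passed with the replicate block, in place of 7 and 295. Leaving out each library left 1 to 7 members there. Scaling to miRNA reads gave 8. voom called 6 members (without mt-Th, 0.0839, and mt-Ts2, 0.0540, but with mt-Td, 0.0184) and edgeR on counts and recovered reads 5 members among 271 features. Centring on the median gave 178 higher and 230 lower features in both runs, and scaling to miRNA reads 296 and 2. The median log2 ratio of 2.36 in SOLiD total RNA became 1.94 when centred and 3.36 on miRNA reads, and that of 1.38 in the size-selected RNA became 0.48 and 2.33. On miRNA reads all 8 members were past a log2 ratio of 1 in both pairs, in place of 6, and when centred 6 and 1 were. The ratio of mt-Tr in the size-selected RNA reversed when centred (-0.80). The members' change against the other mitochondrial tRNAs, -0.07 on the log2 scale, reversed to 0.47 against the plus-strand ones alone and ran from -0.12 to -0.02 when each library was left out. The SOLiD total RNA sum, 4.35-fold higher, was 9.56-fold higher without mt-Th and mt-Ts2, a choice made after seeing the data. The causes of these moves were not tested. Depth limits mt-Td in Ion Proton, at 0 to 30 reads per library.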

Other observations

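Nuclear tRNA features for the same 8 amino acids were counted beside the members. Of 179 listed, 72 rose and 9 fell in the edgeR test of the Ion Proton run, with a median log2 fold change of 0.53, where 15.7% of all features rose and 8.97% fell. Copies of a tRNA gene share reads, so that these features are not independent of each other. All 16 aspartate features rose (median 1.22), as did 10 of 11 histidine features (1.03) and 20 of 29 glycine features (0.76). The 24 arginine features had log2 fold changes from -0.61 to 0.71 (0.11), and of 23 serine features 1 rose and 9 fell (0.19). Of the others, 13 of 30 leucine features rose (0.46, with values up to 3.05), 9 of 29 lysine features (0.26) and 3 of 17 threonine features (1.09). The mitochondrial tRNAs for arginine and serine, mt-Tr and mt-Ts2, rose in the same test by 2.59 and 2.26. mt-Td was the member without a call, while the nuclear aspartate features all had one, at different depths. In SOLiD total RNA the nuclear median log2 ratio exceeded the member's for serine (1.52 against 0.97), histidine (1.71 against 0.57), leucine and threonine. That median lay below the member's for the remaining amino acids, with arginine at 1.31 against 2.98. After size selection it exceeded the member's for arginine (1.13 against 0.10), aspartate, leucine and threonine, and lay below for the rest. Differences between the members and their nuclear counterparts were not tested.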
